A study of Homo sapiens with 13 samples.

Results

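The step examined runs from 28 h to 42 h of BMP4 treatment, the last and longest interval of an RNA-seq time series in human embryonic stem cells. It was chosen as a pair of libraries, 1 at 28 h and 1 at 42 h, of 13 in the series, and every human gene of the table entered it. Of 61541 genes, 15286 averaged 1 CPM (counts per 1000000 of the library total) or more over the 2 libraries and were compared. The question asked of this interval is one of maturation: which genes were still rising, which had passed their peak, and which came back after an earlier fall.

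All libraries came from RUES2, an established human embryonic stem cell line, here carrying GFP fused to SMAD4, the co-factor that takes BMP-activated SMAD proteins into the nucleus. Cells grew at low density in mTeSR1, a medium that maintains pluripotency, with a ROCK inhibitor. Both groups received 100 ng/mL BMP4 and 5 µM IWP2, which stops cells from secreting Wnt proteins, for 28 h or 42 h. The comparison series has a pair of 0 h libraries and single ones after 4, 12 and 20 h, made from total RNA after ribosomal RNA depletion. The labels of the 0 h libraries also carry the BMP4 and IWP2 treatment, and they were read as cells taken at its start. A second set of 6 libraries, taken at 5 h and made with polyA selection, held untreated cells and cells with BMP4, IWP2 and 0 to 300 nM LDN-193189, which blocks BMP receptors (LDN). No untreated cells were followed beyond 5 h, so time in culture and time in BMP4 cannot be told apart in this step.

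BMP4 drives human pluripotent stem cells held without Wnt towards amnion, the epithelium that lines the fluid-filled sac around the embryo. In this conversion the pluripotency factors SOX2, NANOG and POU5F1 give way to GATA and TFAP2 transcription factors, followed by HAND1 and ISL1. Mature amnion is a simple epithelium rich in keratins, with ion transport and a secreted matrix.

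With 1 library on each side there is no test. A gene is called higher or lower here when it changed at least 2-fold on library totals and also after TMM scaling, which corrects for the makeup of a library, and when the 95% interval from counting error leaves out no change. The words rose and fell are used for called genes only. Intervals cover counting error only and not the spread between cultures. The 28 h library held 59083013 counts and the 42 h library 61196400, so 3 counts, taken as the floor, were 0.0508 and 0.0490 CPM. The median gene stood at -0.14 on the log2 scale on library totals and at 0.03 with TMM, a shift of baseline against which every change has to be read.

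By this rule 559 genes were higher (3.66% of those tested) and 1140 were lower (7.46%) at 42 h. The excess of lower genes sat among genes of low level: among genes averaging 10 CPM or more the counts were 336 higher and 294 lower. Of the called genes, 106 of the 559 higher were under 1 CPM at 28 h and 366 of the 1140 lower under 1 CPM at 42 h, so that these were compared only because the other library was high. The 2 libraries at 0 h, the only repeated condition, gave 138 higher genes (0.883%) and 151 lower (0.967%) by the same rule. Of the earlier intervals, 20 h to 28 h gave 314 higher (1.99%) and 211 lower (1.34%), 12 h to 20 h gave 426 (2.67%) and 190 (1.19%), and 4 h to 12 h gave 260 (1.59%) and 320 (1.96%). The first, 0 h to 4 h, gave 794 higher (4.92%) and 142 lower (0.879%). The last step lasted 14 h against 4 h or 8 h for the others, so these counts are not rates. Mitochondrial transcripts took 3.11% of the counts at 28 h and 2.01% at 42 h, against 7.60% and 4.29% in the 0 h libraries, and all 13 tested genes of that kind lay below the median gene, with no call. Their part in the other changes was not tested.

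**Figure D1:**
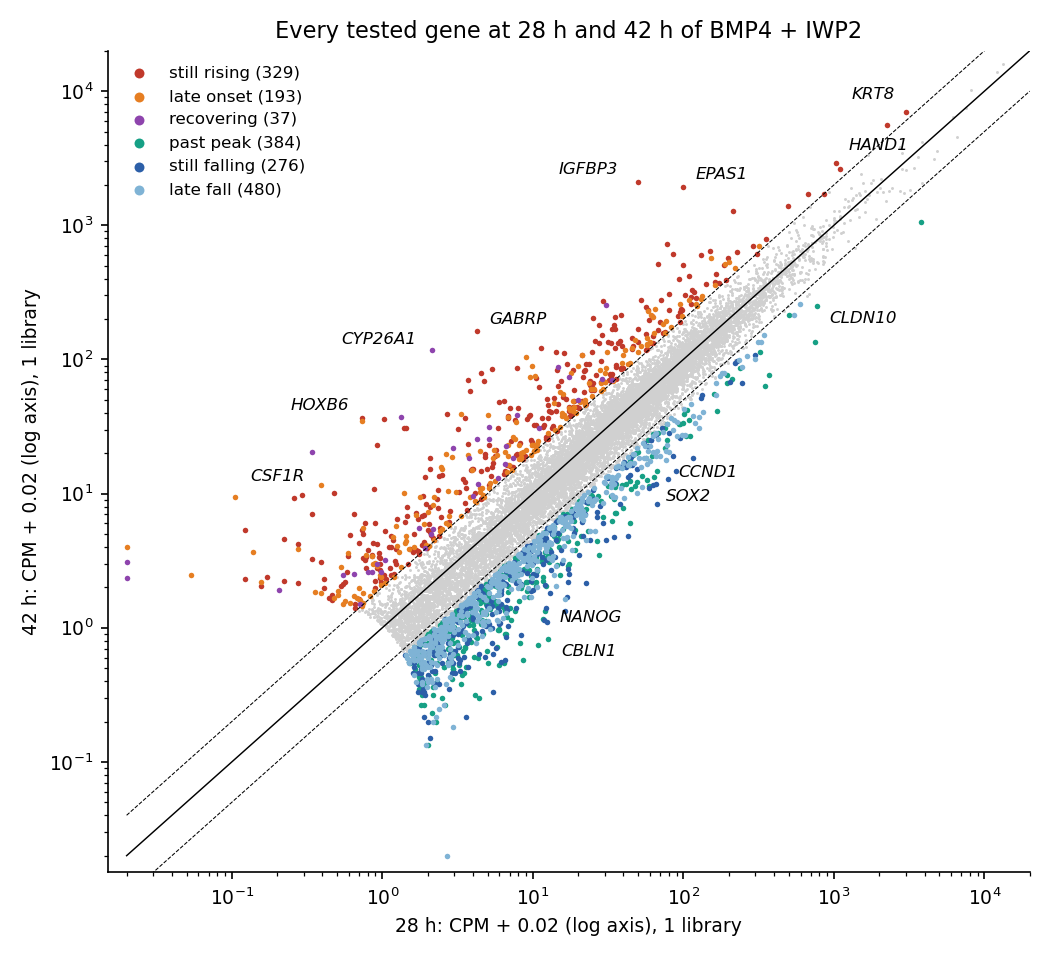
Each point is 1 of 15286 genes, with its CPM at 28 h on the horizontal and at 42 h on the vertical log axis (0.02 CPM added, 1 library each); the solid line marks equal levels, the dashed lines 2-fold, and colours the 6 classes. IGFBP3, EPAS1 and GABRP stand far above the diagonal at high level, while the lower genes crowd at low level.

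The 1699 genes that moved were divided by their state at 28 h against the 0 h mean. Among the higher genes, 329 were already at least 2-fold above 0 h (still rising), 193 were within 2-fold of 0 h (late onset) and 37 were at least 2-fold below (recovering). Among the lower genes, 384 had been at least 2-fold above 0 h at some time from 4 h to 28 h (past peak), 276 others were at least 2-fold below 0 h at 28 h (still falling) and 480 were neither (late fall). The state and the step share the 28 h library, so the split describes the genes and tests nothing. Still rising genes went from a median of 7.85 to 32.4 CPM and all 329 had their highest level of the series at 42 h. The past peak genes dropped from a median of 259% of the 0 h level at 28 h to 77.2% at 42 h, and 107 of them ended at least 2-fold below 0 h. The recovering genes ended at a median of 118% of 0 h, 25 of the 37 within 2-fold of it and 10 at least 2-fold above it.

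**Figure D2:**
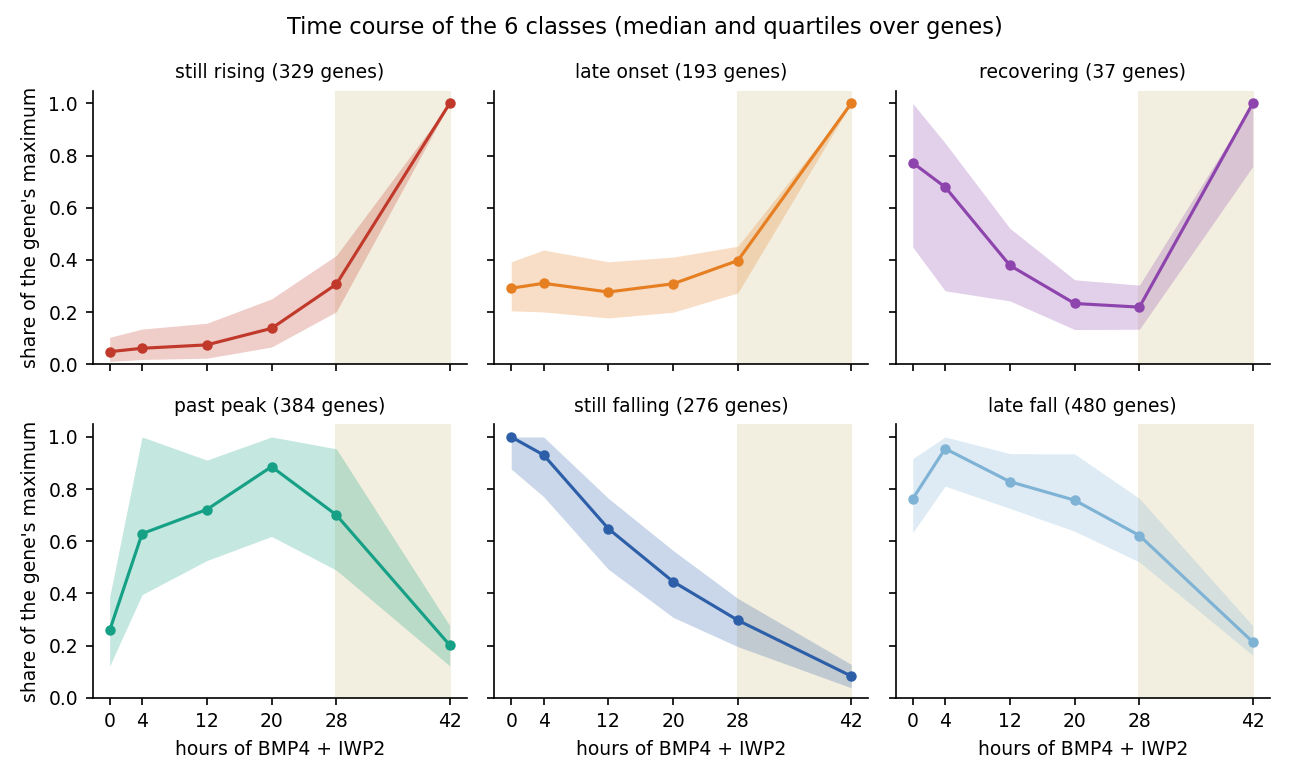
Each panel shows 1 class, with hours of BMP4 and IWP2 on the horizontal axis and the level as a share of each gene's own maximum on the vertical axis; points are medians over genes, bands are quartiles, and the shaded interval is 28 h to 42 h. Still rising and late onset genes end at their maximum, past peak and still falling genes approach their minimum.

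The state at 20 h can be set against the step without sharing a library. Of 1806 genes at least 2-fold above 0 h by 20 h, 12.1% were higher and 16.3% lower at 42 h than at 28 h. Of 693 genes at least 2-fold below 0 h by 20 h, 7.94% were higher and 23.1% lower. The 12787 genes in between moved less often, 2.24% up and 5.36% down. Genes that had responded by 20 h thus moved in both directions in the later step at a larger share than the 3.66% and 7.46% of all genes.

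Many markers of later amnion were among the genes that moved. Of 23 tested members of the list, 14 rose, 12 of them still rising and 2 of late onset, against 3.66% of all genes. The other called members, CLDN10 and PITX1, were past their peak and fell. The median over the 23 was 1.92 on the log2 scale (2.09 with TMM) against -0.14 (0.03) for all genes, and 3 of the 14 that rose were under 1 CPM at 28 h. Stretches upstream of the RefSeq start (GRCh38.p14) are shown for 3 transcription or signalling genes that were still rising, WNT6, HAND1 and MSX1, and for 2 still falling pluripotency factors, SOX2 and ZIC2, since these genes stand for the opposite arms of the step. Each holds the 120 bases before the start, read 5′ to 3′ on the gene's strand, in lower case, with matches to the TFAP2 motif GCCNNNGGC in capitals. They lie at chr2:218859685-218859804 (WNT6, plus strand), chr5:154478228-154478347 (HAND1, minus), chr4:4859545-4859664 (MSX1, plus), chr3:181711805-181711924 (SOX2, plus) and chr13:99981664-99981783 (ZIC2, plus).
WNT6: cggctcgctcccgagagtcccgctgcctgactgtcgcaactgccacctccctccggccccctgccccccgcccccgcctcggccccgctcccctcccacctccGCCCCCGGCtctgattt
HAND1: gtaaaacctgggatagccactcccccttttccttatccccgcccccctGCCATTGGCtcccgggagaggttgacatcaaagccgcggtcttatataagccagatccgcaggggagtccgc
MSX1: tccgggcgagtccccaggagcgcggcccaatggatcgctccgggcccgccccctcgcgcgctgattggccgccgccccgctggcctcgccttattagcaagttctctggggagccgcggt
SOX2: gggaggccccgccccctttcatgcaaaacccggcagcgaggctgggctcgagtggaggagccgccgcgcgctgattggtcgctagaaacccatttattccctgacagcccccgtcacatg
ZIC2: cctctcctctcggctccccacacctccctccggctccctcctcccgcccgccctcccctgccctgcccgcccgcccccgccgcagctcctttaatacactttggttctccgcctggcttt
The motif reads the same on both strands. WNT6 and HAND1 each hold 1 match in this stretch and the other genes none, which says only that these letters are not in these windows. In the longer windows scored below, the falling gene SOX2 also holds the motif, while MSX1 and ZIC2 do not. The motif thus does not separate the rising genes shown from the falling ones.

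Over the full windows from 250 bases before to 50 after the start, the TFAP2 letters were present in 36.2% of 207 promoters of still rising protein-coding genes, 37.96% of 216 past peak and 30.9% of 181 still falling, against 32.9% of the 10658 promoters of tested protein-coding genes. A GATA motif on either strand, written AGATAA or with the last letter changed AGATAG, and with the first letter changed TGATAA or also TGATAG, was found in 19.8%, 18.1% and 16.6% of these classes against 14.3%. The SMAD motif GGCGCC was found in 27.5%, 33.3% and 30.4% against 31.6%. In the same order of motifs, late onset genes stood at 27.1%, 14.3% and 26.4% of 140 promoters and late fall genes at 37.5%, 19.1% and 30.4% of 283. Recovering genes, with 22 promoters, stood at 45.5%, 4.55% and 45.5%, or 10, 1 and 10 promoters. The motifs can overlap each other.

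IGFBP3, which binds insulin-like growth factors outside the cell, made the steepest rise to a high level. It measured 14.1 ± 2.29 CPM at 0 h (SD, n = 2), then 57.3, 14.5, 10.4 and 49.7 CPM after 4, 12, 20 and 28 h, and 2085 CPM after 42 h. The rise in the last step was 41.9-fold (40.4 to 43.5), after an early peak that had faded by 20 h. Per length it reached 926.6 FPKM (fragments scaled to gene length and depth), from 22.9. The gene lies at chr7:45912245-45921874, minus strand (GRCh38, GENCODE 44). EPAS1, the hypoxia-inducible transcription factor HIF-2α, went from 2.76 ± 0.416 CPM at the start to 7.76 by 20 h, 98.8 by 28 h and 1917 by 42 h, a 19.4-fold step (18.9 to 19.9). Both genes thus moved from moderate levels at 28 h into the top of the library.

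GABRP, the pi subunit of the GABA-A receptor and a marker of amnion, went from 1.84 ± 0.149 CPM at the start to 0.512 by 20 h, and then climbed to 4.23 by 28 h and 164 by 42 h (38.8-fold, 34.2 to 44.2). TP63, a transcription factor of stratified and amniotic epithelium, went from 3.69 to 70.2 CPM, and VTCN1, an immune checkpoint protein of amnion and trophoblast, from 0.457 to 10.1 CPM. WNT6, a Wnt ligand, rose from 29.3 to 273 CPM (9.32-fold, 8.87 to 9.80). These 4 genes were all under 5 CPM at 20 h. HAND1 was ahead of them: 297 CPM by 20 h, 1036 by 28 h and 2919 by 42 h, a 2.82-fold step. Per length HAND1 stood at 2028 FPKM at 42 h, among the highest of the called genes.

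Of 12 listed factors that switch on early in this lineage 4 rose and none fell, against 3.66% and 7.46% of all genes. Several of the best known did not pass the fold. GATA3 measured 270, 296 and 322 CPM after 20, 28 and 42 h, TFAP2A 312, 348 and 367, and GATA2 321, 407 and 462. TFAP2C read 129, 237 and 176 CPM, a step of -0.43 on the log2 scale (-0.26 with TMM). ISL1, which marks amnion after GATA3, read 24.2, 74.1 and 137 CPM, and its step of 0.88 (1.05 with TMM) passed 2-fold on 1 of the 2 scales only. In contrast MSX1, a homeobox target of BMP signalling, rose 5.13-fold (4.82 to 5.45) from 21.2 to 108 CPM, MSX2 rose 2.23-fold to 789 CPM and TBX3, a T-box repressor, 2.41-fold to 702 CPM. The fourth of the early factors that rose, TFAP2B, went from 0.745 to 3.19 CPM and was named after its values were seen. Under 1 CPM at 28 h, TFAP2B was compared only because of its level at 42 h.

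**Figure D3:**
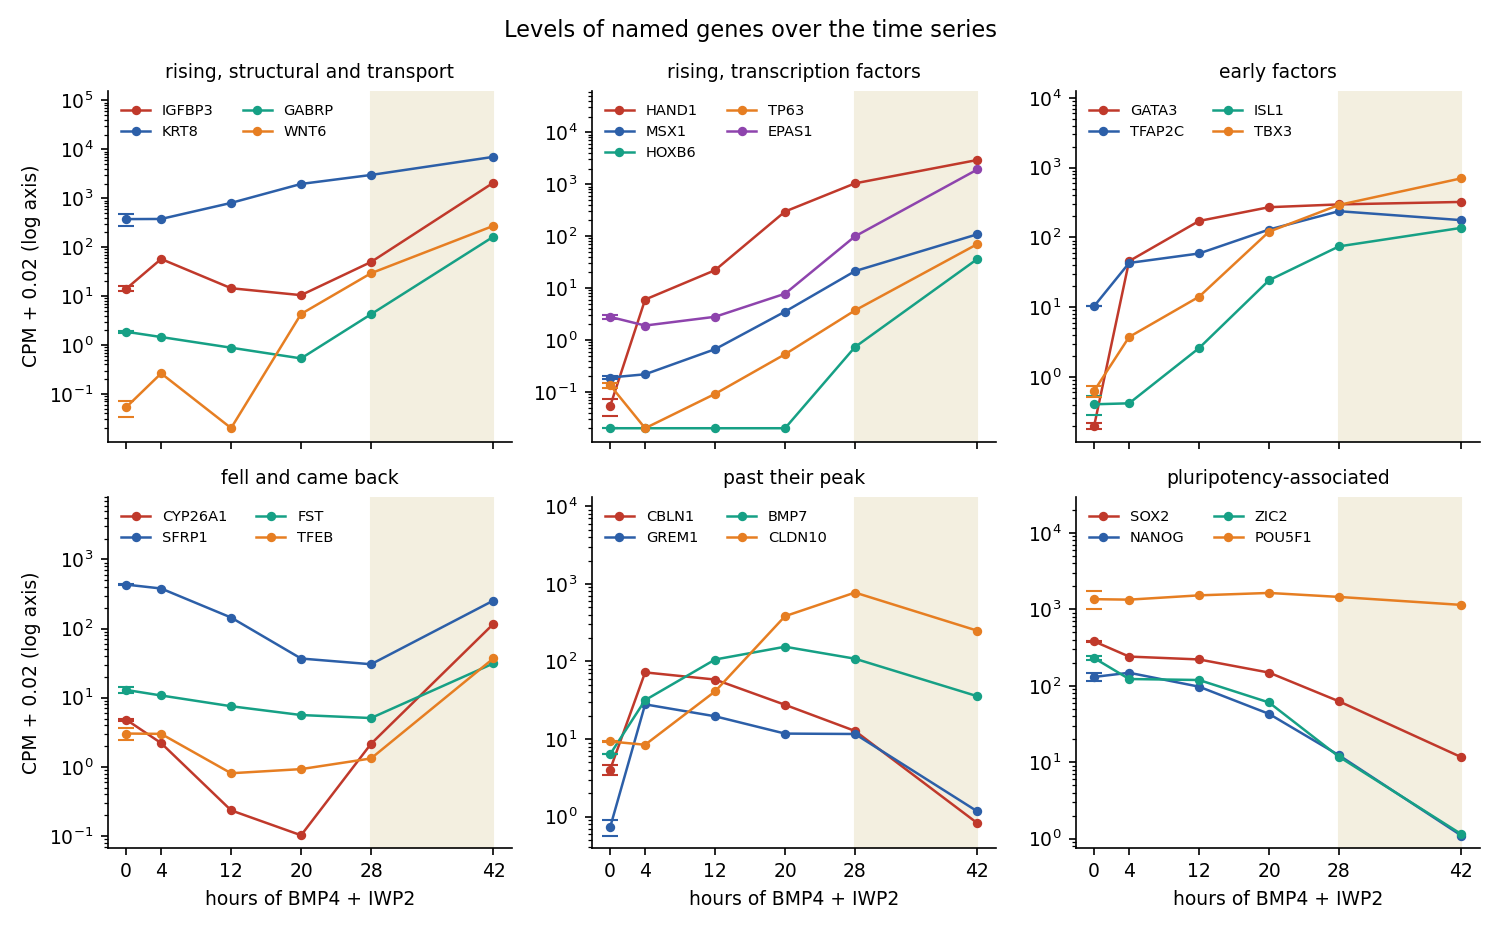
The 6 panels show CPM (0.02 added, log axis) of named genes against hours of BMP4 and IWP2; points are single libraries, except the 0 h mean with ticks for its 2 libraries, and the shading marks 28 h to 42 h. GATA3 levels off, GABRP and HOXB6 climb only at the end, CYP26A1 and SFRP1 turn upward, and NANOG and ZIC2 end near 1 CPM.

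Most of the keratins that could be tested rose. Of 13 listed, 8 reached a mean of 1 CPM. Of these 7 rose and none fell, against 3.66% and 7.46% of all genes, with a median of 1.38 (1.54 with TMM). Of the 7, 1 was under 1 CPM at 28 h and was compared only because of its level at 42 h. KRT8, the partner of KRT18 in simple epithelia, went from 2997 to 7033 CPM, KRT18 from 1090.3 to 2646 CPM and KRT19 from 676 to 1719 CPM. Per length these were the top called genes at 42 h together with HAND1, EPAS1 and IGFBP3, with KRT8 at 4624 FPKM and KRT18 at 2305 FPKM. KRT7, another simple-epithelium keratin, rose 5.05-fold (4.91 to 5.19) to 503 CPM and KRT80 4.06-fold to 37.96 CPM. KRT8 and KRT18 overlap on opposite strands at chr12 and have many processed copies, so their separate levels are uncertain. KRT5 and KRT14, the basal keratins of skin, had no count at either time. Beside the keratins, EPCAM, an epithelial adhesion molecule, rose from 133 to 299 CPM after a low of 70.4 CPM at 20 h, and 3 of 16 desmosome and adherens junction genes rose, among them DSP (2.08-fold) and PKP3. Of 14 tight junction genes none rose and CLDN10, a claudin that is also among the later amnion markers, fell from 773 to 248.8 CPM. PITX1, a homeobox gene and the other amnion marker that fell, went from 6.48 to 2.09 CPM and was named outside the rule.

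Genes of the HOXB cluster came on late. HOX genes pattern the body axis and lie in clusters; 33 were listed and 5, all of them HOXB genes, reached a mean of 1 CPM. Of these, 4 were under 1 CPM at 28 h and were compared only because of their level at 42 h, so that the number that rose is no result about the list and each gene is given by its values. HOXB6, at chr17:48595751-48604992, had no count in any library up to 20 h, 42 counts at 28 h and 2221 at 42 h, or 0.711 and 36.3 CPM (51.1-fold, 37.6 to 71.0). HOXB2 at chr17:48540894-48545109 went from 0.999 to 36.0 CPM. HOXB3, HOXB5 and HOXB9, named outside the rule, ended at 4.58, 3.99 and 6.08 CPM, and HOXB5, with no count at 28 h, was at least 78.5-fold higher against a floor of 3 counts. The annotated span of HOXB3 covers HOXB5 and most of HOXB6, so the split of reads among them is uncertain. The listed HOXA, HOXC and HOXD genes all stayed under 1 CPM in both libraries. HOXC13 was not listed and was seen afterwards: it rose from 6.41 to 48.6 CPM. MEIS1, a cofactor of HOX proteins, rose from 10.98 to 62.0 CPM.

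Growth factor and retinoid genes moved unevenly. In the insulin-like growth factor axis 6 of 14 tested genes rose and none fell, against 3.66% and 7.46% of all genes. Of the 6, 1 was under 1 CPM at 28 h. Besides IGFBP3, IGFBP7 went from 7.87 to 86.0 CPM and IGF2 from 6.82 to 37.7 CPM. H19, the noncoding neighbour of IGF2, went from 9.04 to 105 CPM (11.6-fold, 10.6 to 12.7). CDKN1C, an inhibitor of cell cycle kinases in the same imprinted region of chromosome 11, rose from 21.1 to 108 CPM. Of the imprinted genes listed, 3 of 21 rose, these 3 on chromosome 11, and 1 fell, to under 1 CPM. In the retinoid list 3 of 14 rose and 1 fell, to under 1 CPM. The median of this list was -0.17 (-0.01 with TMM), near that of all genes. Of 8 tested BMP ligands 1 rose and 3 fell, 1 of the 3 to under 1 CPM, against the same 3.66% and 7.46% of all genes. ALDH1A2, which makes retinoic acid, rose from 11.4 to 121 CPM (10.6-fold), and CYP26A1, which breaks it down, from 2.13 to 117 CPM. The receptor genes of that list did not pass the fold on both scales.

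WNT6, WNT4 and WNT9B rose among 11 tested Wnt ligands while none fell. WNT4 reached 43.4 CPM from 7.04, and WNT9B, below the level set for naming, 7.97 from 2.05. IWP2 acts on the release of Wnt proteins. Both libraries had IWP2, and its part in these transcript levels was not tested. Of 9 targets and feedback genes of the pathway 2 rose and 4 fell, 1 of the 4 to under 1 CPM. In lists this short, as in the junction, imprinted and retinoid lists, 1 or 2 calls are near the 3.66% and 7.46% of all genes. NOTUM, a secreted Wnt inhibitor, fell from 46.5 to 19.2 CPM and NKD1, an intracellular one, from 12.0 to 3.63 CPM, whereas RNF43, which removes Wnt receptors, rose from 9.48 to 38.5 CPM and TNFRSF19 from 14.5 to 29.0 CPM.

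Genes of late onset stood within 2-fold of their 0 h level at 28 h. The 6 with the largest steps, among protein-coding genes with at least 10 CPM at either time, were UNC5C, a netrin receptor (0.711 to 34.5 CPM), CSF1R, the receptor of colony stimulating factor 1 (0.372 to 11.6 CPM), IFI6, an interferon-induced protein (3.30 to 39.4 CPM), TNC, the matrix protein tenascin C (9.82 to 88.9 CPM), EDNRB, an endothelin receptor (9.61 to 74.1 CPM) and SYNM, an intermediate filament protein (4.98 to 38.2 CPM). CSF1R had stayed between 0.210 and 0.376 CPM in all 6 earlier libraries. The laminin LAMA1, a basement membrane chain, rose 2.51-fold to 194 CPM and the sodium, potassium and chloride cotransporter SLC12A2 from 42.8 to 92.5 CPM. Among 15 tested genes of water and ion transport, GABRP and SLC12A2 rose and 3 fell, among them ATP1B2, against 3.66% and 7.46% of all genes. Of the 3, 2 were under 1 CPM at 42 h. The median over the 15 was 0.08 (0.25 with TMM).

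The recovering genes were few. CYP26A1 was 4.80 ± 0.230 CPM at the start, 0.0825 CPM after 20 h, 2.13 CPM after 28 h and 117 CPM after 42 h. Its step of 54.8-fold (46.0 to 65.9) took it to 2436% of its 0 h level. CCBE1, a secreted matrix protein, went from 0.322 to 20.4 CPM, or 742% of 0 h, and TFEB, a regulator of lysosome genes, from 1.3 to 37.0 CPM. These 3 overshot their starting level. SFRP1, a secreted Wnt antagonist, recovered in part, from 432 ± 14.6 CPM before BMP4 to 30.4 by 28 h and 254 by 42 h, 58.8% of the start. FST, which binds activin, moved from 5.06 to 31.3 CPM and ZMAT4, a zinc finger gene, from 2.93 to 21.8 CPM.

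Past their peak were several secreted antagonists and surface proteins that had risen earlier. GREM1, a BMP antagonist, was at 0.708 ± 0.228 CPM before BMP4 and 27.9 by 4 h, still read 11.6 by 28 h and dropped to 1.14 by 42 h (10.1-fold lower, 7.91 to 13.1). CBLN1, a secreted synaptic protein, peaked at 72.2 CPM at 4 h and went from 12.7 to 0.801 CPM in this step. SHISA3, an inhibitor of Wnt and FGF receptors, had peaked at 26.2 CPM at 20 h and went from 10.9 to 0.719 CPM. COL13A1 and KLHL14 fell 9.08- and 6.18-fold. Their highest levels before the step had both been at 20 h. BMP7, a BMP ligand, had reached 155 CPM at 20 h and fell 3.05-fold (2.90 to 3.20) from 108 to 35.5 CPM, and NGFR, the low-affinity neurotrophin receptor, from 35.0 to 7.19 CPM. IL6ST, the shared receptor of the interleukin 6 family, fell from 99.6 to 33.3 CPM. Of 384 past peak genes, the highest level between 4 h and 28 h fell on 4 h for 99 of them, 12 h for 59, 20 h for 145 and 28 h for 81.

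Of 19 BMP targets and feedback genes 2 rose, MSX1 and MSX2, and 1 fell, a count too small to set against the 3.66% and 7.46% of all genes, with a median of 0.08 (0.24 with TMM). ID1, a direct target, read 1604, 1370 and 1303 CPM after 20, 28 and 42 h, and SMAD6, a feedback inhibitor, 941, 672 and 708. BAMBI, a decoy receptor, measured 563 and 925 CPM at the last 2 times, NOG, a BMP antagonist, 235 and 150. The ligand gene BMP4 read 324 and then 280 CPM, against 4.81 ± 0.394 before treatment. None of 14 tested receptors and SMAD genes passed the fold. The fallen target, ATOH8, ended at 0.474 CPM and was named outside the rule.

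**Figure D4:**
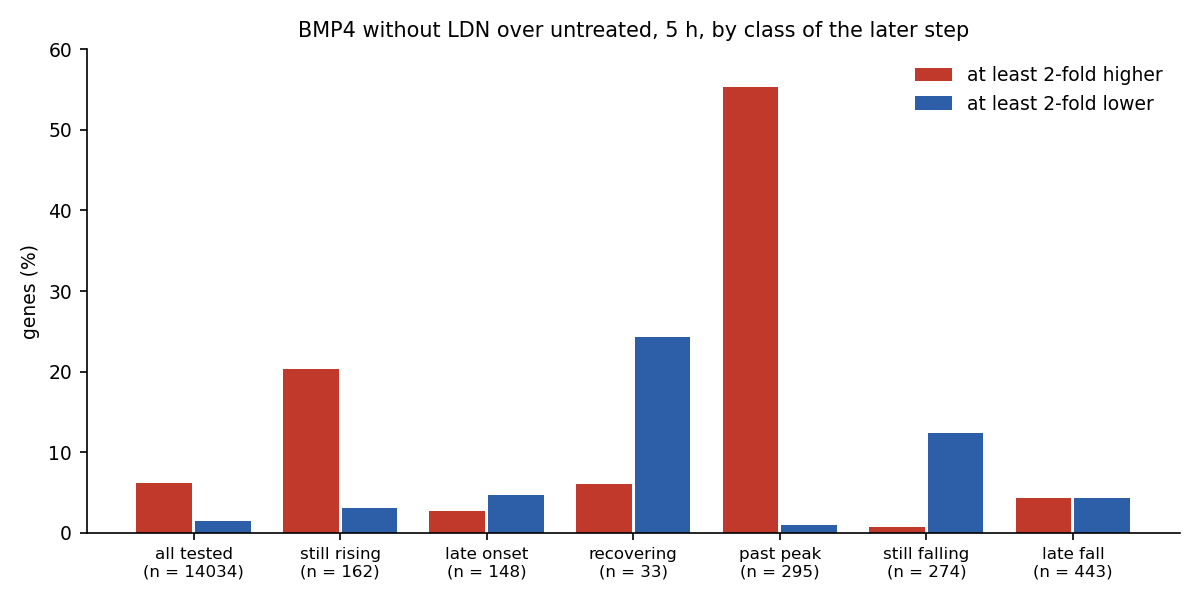
Bars give the percentage of genes in each class that were at least 2-fold higher (red) or lower (blue) in the 5 h library with BMP4 and no LDN than in the untreated one; n is the number of genes that averaged 1 CPM or more there. Past peak genes, a class formed by an earlier rise in the time series, were higher at 5 h in 55.3% of cases, against 6.18% of all tested genes. Late onset genes were higher in 2.7% and lower in 4.73%, late fall genes in 4.29% each way.

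The separate 5 h libraries were not used to form the classes. The class rules did use the response to the same treatment in the time series. Past peak genes had a 2-fold rise from 4 h to 28 h, which still falling and late fall genes lacked by rule. Still rising genes were 2-fold above 0 h at 28 h, recovering and still falling genes 2-fold below, and late onset genes in between. The shares of 5 h responders are thus partly set by these rules and test nothing. Of 295 past peak genes measured at 5 h, 163 (55.3%) were at least 2-fold higher with BMP4 than in untreated cells, against 6.18% of all tested genes, and their median was 1.10 on the log2 scale (0.11 for all genes). With 300 nM LDN over none the median of the same genes was -0.88 (-0.02 for all). Of 162 still rising genes measured 20.4% were higher. Of 148 late onset genes 2.7% were higher and 4.73% lower, and of 443 late fall genes 4.29% each way. Recovering and still falling genes were lower in 24.2% of 33 and 12.4% of 274, against 1.43% of all. These libraries were extracted and prepared in another way than the time series and have no replicates, and a gene had to be measurable at 5 h to be counted, which left out 167 of the 329 still rising genes.

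Pluripotency genes fell further, to different extents. Of 28 tested members of the list 15 fell and none rose, against 7.46% and 3.66% of all genes, with a median of -1.45 (-1.28 with TMM). Of the 15, 4 were under 1 CPM at 42 h and were compared only because of their level at 28 h. NANOG began at 131 ± 21.4 CPM, read 148, 97.5, 43.0 and 12.3 CPM after 4, 12, 20 and 28 h, and ended at 1.08 CPM, an 11.4-fold fall (8.88 to 14.95) in this step that left 0.825% of the 0 h level. SOX2 fell 5.39-fold (4.98 to 5.85) from 62.7 to 11.6 CPM, 3.05% of 0 h. ZIC2, a zinc finger factor of pluripotent and neural cells, fell from 11.8 to 1.13 CPM, TDGF1, the Nodal co-receptor, from 65.6 to 11.7 CPM, and ESRG, a noncoding RNA of stem cells, from 89.2 to 14.6 CPM. POU5F1 did not pass the fold, with 1457 CPM at 28 h and 1145 at 42 h against 1003 and 1721 in the 0 h libraries, a step of -0.35 (-0.18 with TMM). Its processed copies make its own level uncertain. In bulk RNA fewer cells with a transcript and less of it per cell cannot be told apart.

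Some genes typical of neurons fell as well. The largest steps among still falling genes, beside NANOG and ZIC2, were those of TMEM151B (16.2 to 1.32 CPM), the neuronal splicing factor NOVA2 (22.6 to 2.14), the kinase-like vesicle protein CAMKV (16.7 to 1.67) and JPH4, a neuronal junctophilin (43.0 to 4.79). All of them had been highest at 4 h or before. Of 8 tested neural markers 5 fell and none rose (median -1.87, -1.71 with TMM), against 7.46% and 3.66% of all genes. By class, 2 of the 5 were still falling, 2 were late fall and 1 was past its peak. Of 6 neural crest markers 4 fell and 1 rose. Under 1 CPM at 42 h, and compared only because of their level at 28 h, were 2 of the 5 and 1 of the 4. The 1 that rose was under 1 CPM at 28 h. SOX3, a neural partner of SOX2, had dipped to 5.80 CPM at 12 h, returned to 16.4 CPM at 28 h and fell 10.1-fold to 1.62 CPM. NES, a filament of neural progenitors, read 323 and 354 CPM, most of the neural list's sum of 390 and 376 CPM. MAP2, of the same list, read 2.44 and 3.95 CPM and was not called. PAX6 and SOX1, which define neural cells, were under 1 CPM at both times.

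The late fall genes, the largest class, were within 2-fold of their 0 h level at 28 h. CCND1 and CCND2, D-type cyclins of the G1 phase, fell 4.29-fold (4.02 to 4.59) from 76.1 to 17.7 CPM and 4.09-fold (3.89 to 4.30) from 127 to 31.1 CPM. The remaining 31 of 33 G1 and replication genes were not called. These 2 of 33 that fell are near the 7.46% of all genes, and none rose, against 3.66%. None of 26 G2 and mitosis genes was called, a list short enough that few calls would be met at those shares. Its median was 0.08 (0.24 with TMM). MKI67, the proliferation marker, read 274 and 223 CPM. NOTCH1, a Notch receptor, fell from 120 to 33.3 CPM, ETV4, a transcription factor downstream of FGF, from 102 to 27.1 CPM, and SLC7A11, the cystine transporter, from 97.3 to 27.4 CPM. FGF2 had already been falling and went from 85.1 to 18.99 CPM. CACNA1A, CYBRD1, ATP1B2, PGAP4 and UGT8 fell between 4.98-fold and 5.69-fold, from 10.6 to 22.5 CPM at 28 h.

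Other cell types were looked for by their defining markers. Of 25 trophoblast markers 8 reached a mean of 1 CPM. Of these 2 rose and none fell, against 3.66% and 7.46% of all genes. The 2 were CYP11A1 (3.84 to 15.1 CPM) and HLA-G (0.508 to 2.81 CPM). HLA-G, under 1 CPM at 28 h, was compared only because of its level at 42 h. CGA, the hormone subunit, was at 0.163 CPM at 42 h, and the pregnancy glycoprotein genes PSG1, PSG3 and PSG4 had no count. The summed level of the list was 557 CPM at 28 h and 538 at 42 h, most of it PEG10. TBXT, the defining gene of the primitive streak, read 0.203 and 0.180 CPM. The mesoderm list summed to 63.9 and 54.4 CPM, with KDR falling from 29.2 to 6.06 and TBX20 rising from 6.74 to 16.3. Endoderm markers summed to 10.8 and 7.53 CPM, with SOX17 at 1.49 and 0.441. Of the germ cell genes, 9 were listed, summing to 308 and 243 CPM, most of it TFAP2C. The mesenchyme list of 14 genes, which also holds the ligand gene BMP4, summed to 1057 and 831 CPM. Of its members 11 were tested, and 8 of these averaged 10 CPM or more. None rose and 2 fell, 1 of the 2 to under 1 CPM, against 3.66% and 7.46% of all genes. DCN and COL3A1 stayed under 1 CPM. Surface ectoderm and epidermis markers rose in sum, from 707 to 1199 CPM. Among 10 tested 3 rose, 1 of them from under 1 CPM, and none fell, against the same 3.66% and 7.46%. The median was 0.40 (0.56 with TMM). The 3 were TP63 and WNT6, which the later amnion list also holds, and TFAP2B, while KRT5 and KRT14 had no count. The part of such cells in the changes was not tested. The labels call all samples embryonic stem cells, and at 42 h SOX2 and NANOG stood at 11.6 and 1.08 CPM beside 1145 CPM of POU5F1 and 1806 CPM of LIN28A.

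**Figure D5:**
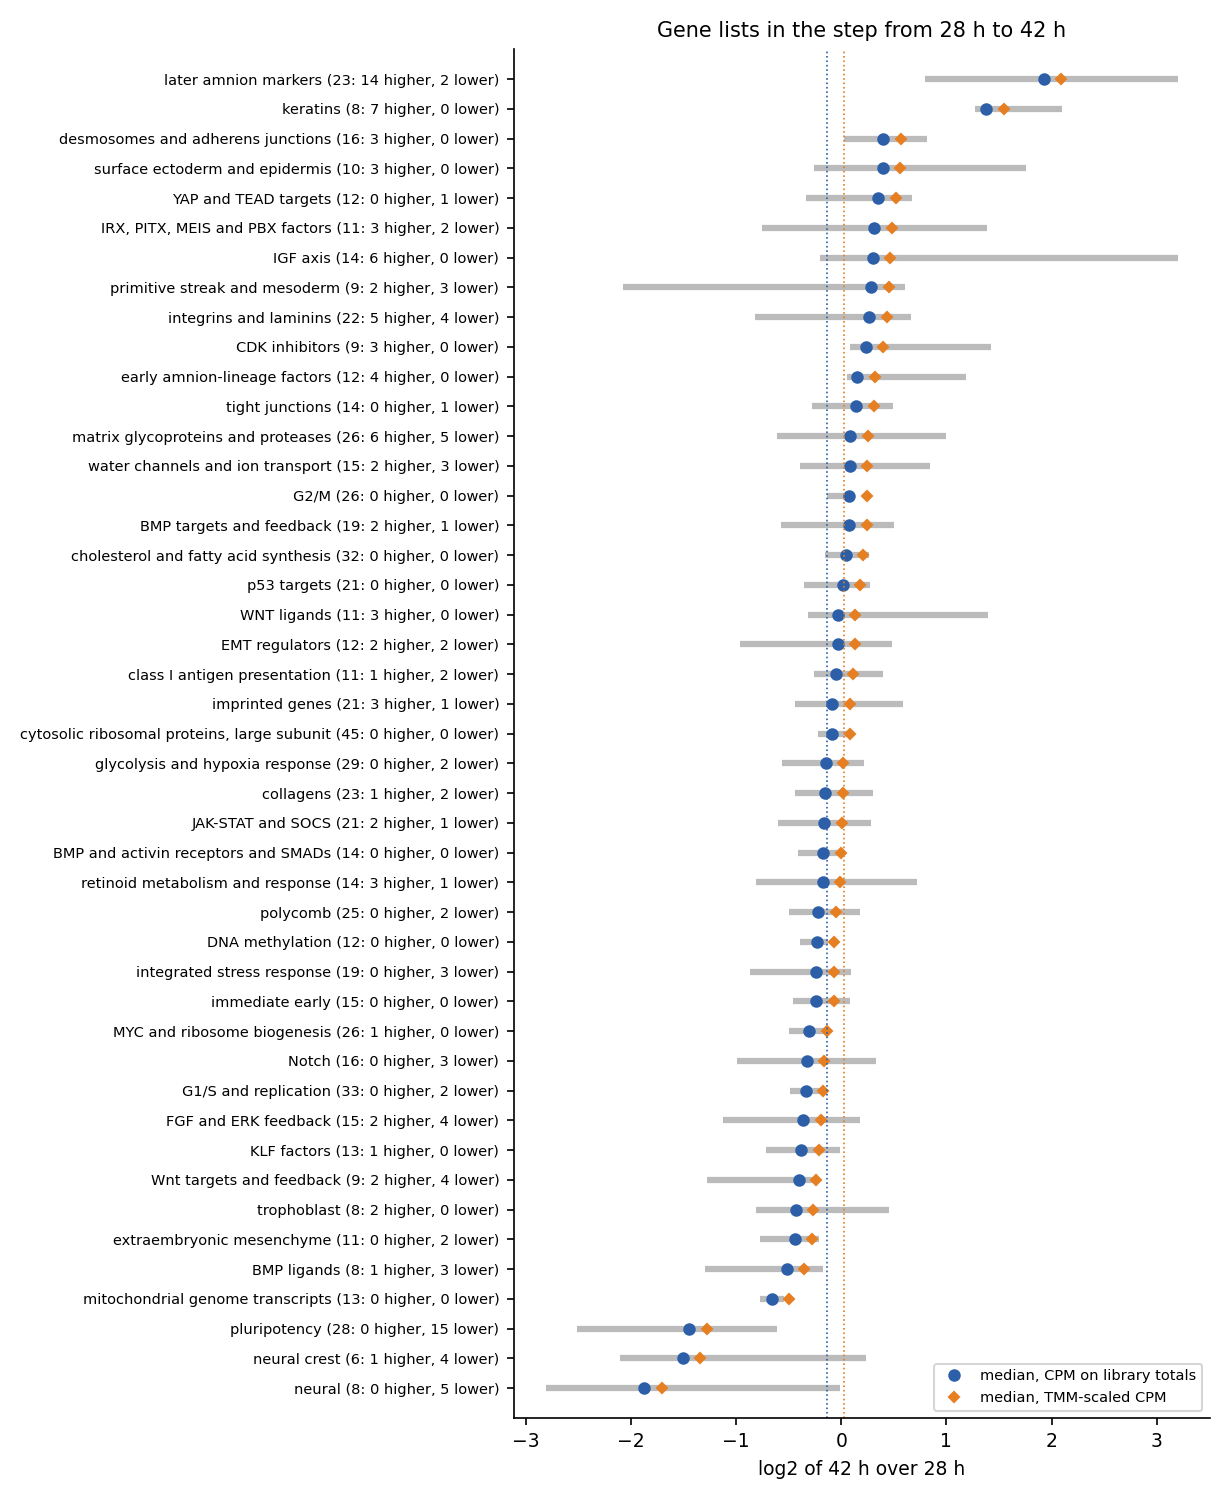
Lists with at least 5 tested genes, the HOX list left out since over 50% of its genes passed the level filter through 1 library only, are ordered by the median log2 change of 42 h over 28 h on library totals (circles) and with TMM (diamonds); grey bars are quartiles over genes on library totals, dotted lines the medians of all tested genes, and labels give the genes tested, higher and lower. Later amnion markers and keratins stand at the upper end, neural, neural crest and pluripotency genes at the lower end.

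Some lists held no called gene. None of 32 cholesterol and fatty acid synthesis genes or 45 large-subunit ribosomal protein genes passed the fold in either direction, against 3.66% and 7.46% of all genes. The lists of 21 p53 targets, 15 immediate early genes and 12 DNA methylation genes also held none, but are short enough that few calls would be met at those shares. Of 29 glycolysis and hypoxia genes none rose and 2 fell, EGLN3 (93.4 to 33.0 CPM) and ENO2 (33.7 to 12.9 CPM), at the time when EPAS1 rose. Both tested metallothioneins fell, among them MT2A, a metal-binding protein, from 13.2 to 2.66 CPM after 172 ± 0.719 CPM at 0 h. In the matrix lists genes moved both ways: 6 of 26 matrix and protease genes rose and 5 fell, with the metalloprotease ADAMTS9 going from 14.3 to 114 CPM and the hyaluronan link protein HAPLN1 from 61.8 to 209 CPM. Of 22 integrins and laminins 5 rose and 4 fell. Both lists are to be set against the 3.66% and 7.46% of all genes. Of the 5 matrix and protease genes that fell, 2 were under 1 CPM at 42 h. Among integrins and laminins 2 of the 5 that rose were under 1 CPM at 28 h, and 1 of the 4 that fell at 42 h.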

How the data were processed

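Bulk RNA-seq libraries of GFP::SMAD4 RUES2 cells were used: 7 of the time series and, for 1 readout, 3 of the 6 at 5 h. The submitters' processing notes name STAR 2.7.8a, RSEM 1.3.3 and GRCh38, and the study's methods name Cutadapt for trimming; the annotation release is not given in the sources used here. The deposited tables hold expected counts, whole as deposited and unscaled; the time-series total ranged from 37957385 to 71333471. The deposited FPKM values were normalized by the authors for length and depth and served for levels between genes and an alternative. Whether counting used strand is not given in the sources used here, so overlapping antisense genes are marked as uncertain.

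CPM was computed on totals over all 61546 features, 5 of them not human. TMM factors (edgeR 4.0.16) came from the 7 time-series libraries, DESeq2 1.42.0 size factors were an alternative, and 0.01 CPM was added before log2. The 0 h libraries were averaged. Intervals are exact (Clopper-Pearson) at 95%. Positions are from GENCODE 44, where 61369 of 61541 identifiers were found. Promoters are from RefSeq; 1 entry per symbol was used. Python 3.11.15 (scipy 1.17.1, pandas 2.3.3, numpy 2.4.6, matplotlib 3.10.9) and R 4.3.3 were used.

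Named genes were the 6 largest steps per class among nuclear protein-coding genes with at least 10 CPM at 28 h or 42 h, 7 markers (SOX2, NANOG, POU5F1, GATA3, TFAP2C, ISL1, HAND1), up to 4 largest steps per list, cell-type markers, and the 6 highest FPKM at 42 h among called genes; other members of the lists were added after their values were seen, and some genes that the rule names are not reported here. The interval and the 50 lists were chosen with earlier results of these data known.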

Additional observations from a re-analysis of the deposited data

Results flagged for a closer look

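Reads on the sequence of the GFP tag, a feature outside the human genome that entered no comparison, numbered 1321 at 28 h and 1582 at 42 h, far above the 3 counts taken as the floor. Scaled to the library total this was 22.4 and 25.9 CPM, within the range of 22.4 to 30.0 CPM over the 7 libraries of the time series. SMAD4, to which the tag is fused, read 122 and 136 CPM at these times.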

How the results depend on the processing

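No paired analysis was possible because only the 0 h libraries carry replicate numbers. The alternatives gave the following counts. The threshold and the filter on low values moved them most. A fold of 1.5 gave 1174 higher and 2319 lower genes, with 677 still rising, 401 late onset, 96 recovering, 1011 past peak and 741 still falling; a fold of 3 gave 275 and 435, with 151, 112, 12, 120 and 87, and 228 late fall. A mean of at least 10 CPM gave 336 and 294, with 203, 114, 19, 89, 63 and 142 in the order above. Without a filter 992 were higher and 3448 lower, with 387 late onset, 161 recovering, 1297 past peak, 692 still falling and 1459 late fall. Reading the state at 20 h and 28 h together gave 213 still rising, 312 late onset and 139 still falling. The late fall class held 729 genes on protein-coding totals and 732 with FPKM. Leaving out either 0 h library, TMM alone, DESeq2 size factors alone, library totals alone, a mean of 2.5 CPM over the 6 times and 0.5 CPM added kept the number in every class and in both directions within 1.5 times. No called gene turned direction under any alternative run, but every alternative used the same 2 libraries, so this says nothing about other cultures. Of the called genes 37.1% stayed called at a mean of 10 CPM and 41.8% at a fold of 3. The higher share of called genes was 32.9%, 38.7% with TMM alone and 53.3% at 10 CPM. It was smaller on library totals alone (27.1%), on protein-coding totals (26.3%), with FPKM (27.8%) and without a filter (22.3%). Of 50 list medians 9 changed sign between library totals and TMM, all between -0.16 and 0.13, and 198 of 200 named genes kept theirs. With 1 library at each time, depth limits genes near 1 CPM most.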

Other observations

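Beyond the lists, long noncoding RNAs moved in both directions, 49 of 1304 tested higher (3.76%) and 131 lower (10.0%). Among all genes the shares were 3.66% and 7.46%, so the higher share was near that of all genes. PCAT14 was among the most abundant of those past their peak. It measured 0.848 ± 0.366 CPM before BMP4 (SD, n = 2), then 162, 1131, 754 and 134 CPM after 4, 20, 28 and 42 h, 5.61-fold lower (5.48 to 5.75). MIAT fell from 27.6 to 3.46 CPM after 397 CPM at 4 h, and MIR302CHG, the host of the stem cell miR-302 cluster, from 34.8 to 4.69 CPM. DIO3OS, at the imprinted DIO3 locus, rose from 15.4 to 69.1 CPM, and HOXC13-AS, which overlaps HOXC13 on the other strand, from 2.45 to 13.9 CPM. Whether counting used strand is not given in the sources used here, so the last value is uncertain.

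Grouping tested protein-coding genes by the letters of their symbol gave 236 families of at least 8 members, a grouping made after the values were seen. Of all tested protein-coding genes 3.71% were higher and 7.07% lower. The largest share of lower genes was in the synaptotagmins, calcium sensors of vesicle release, with 8 of 15 lower and none higher (median -1.19 on the log2 scale, -1.02 with TMM). In the CACNA family of calcium channel subunits 4 of 9 were lower and none higher, among them CACNA1G, from 49.4 to 12.2 CPM. The largest share of higher genes was in the keratins, with 7 of 9. These are extremes picked from 236 families, and members that passed the level filter through 1 library only were not set apart.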
